A study of Rattus norvegicus with 132 samples.

Results

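The vitamin D and calcium transport genes described here were 5 genes, Trpv6, S100g, Atp2b1, Vdr and Cyp24a1, of the 21837 genes in each of 2 deposited tables of raw counts. They were found by symbol, and both tables hold all 5. The set was selected on the differences that these same libraries showed for Cyp24a1 under the oral preparation and for S100g over time, so those contrasts are given as descriptions, with no test. The RNA came from the epithelium of the colon or the jejunum of Sprague Dawley rats, and all 22 groups hold 6 libraries. In each tissue, irradiated rats received compound Kushen powder by mouth (an herbal preparation that some labels call a pill) or its vehicle, water. Other irradiated rats received compound Kushen injection into the peritoneum or its vehicle, 0.25% Tween-80 in 25 mM HEPES. Irradiated rats without treatment and rats with neither irradiation nor treatment completed the design. All irradiated groups, vehicles included, had abdominal irradiation in 5 fractions of 4 Gy between day 0 and day 4, and the 2 collection times were day 4 and day 7. The labels give no sex, age or cell composition of the epithelial samples.

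Calcium is carried across the intestinal epithelium by a transcellular route. Trpv6 is the calcium channel of the apical membrane, S100g (calbindin-D9k) is the cytosolic buffer that binds calcium on its way through the cell, and Atp2b1 is a plasma membrane calcium pump that extrudes it on the basolateral side. Vdr is the nuclear receptor of calcitriol, the active vitamin D hormone, and binds DNA together with a retinoid X receptor. Trpv6, S100g and Cyp24a1 are known targets of this receptor, and Cyp24a1 is the mitochondrial enzyme that inactivates calcitriol.

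Library totals lay between 17.2 and 19.8 M counts (median 19.14 M). Levels are CPM, counts of a gene per M counts of its library, scaled with TMM factors over all libraries. They are not divided by transcript length, so levels were compared within a gene and never between genes. The labelled tissue was checked with marker genes: the summed CPM of jejunal enterocyte markers exceeded that of colonocyte markers in 66 of 66 jejunum libraries and in 0 of 66 colon libraries. The first digit of the library names divides the libraries into 3 series. The non-irradiated, untreated, powder and oral vehicle groups hold 3 libraries each of series 1 and series 2, while series 3 holds every injected library, which leaves each injected group to be set only against another injected group. Differences are log2 values of edgeR's quasi-likelihood fit with their standard error (SE), and a gene was called at a Benjamini-Hochberg adjusted p under 0.05, taken over every gene in the fit. All 5 genes passed the filter on low counts in the colon and 4 passed it in the jejunum, where Cyp24a1 did not.

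Trpv6 and S100g were abundant in the colon epithelium of non-irradiated rats and at day 4, and were nearly lost at day 7. Trpv6 averaged 652 ± 184 CPM in non-irradiated rats, 851 ± 357 CPM at day 4 and 24.8 ± 12.2 CPM at day 7 after irradiation without treatment (SD, n = 6 each). The lowest, median and highest libraries had 444, 664 and 920 CPM in non-irradiated rats, 225, 924 and 1226 CPM at day 4, and 10.7, 23.1 and 44.4 CPM at day 7. No day 7 library reached any non-irradiated or day 4 library. Against non-irradiated colon, Trpv6 fell by 4.73 ± 0.51 (log2, SE) at day 7, which is 26.4-fold (edgeR adjusted p = 1.58e-09), with -4.49 in series 1 and -4.94 in series 2, while its day 4 difference of 0.40 ± 0.44 was not called (edgeR adjusted p = 0.466). In these bulk libraries fewer cells that express a gene and less RNA per cell cannot be told apart.

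The region before the transcription start of Trpv6 is shown because this gene had the largest fall of those tested against non-irradiated colon and its level followed that of S100g across the colon libraries. The RefSeq-derived promoter table of build GRCr8, which is not the build of the counts, held 3 of the 5 genes, Trpv6, Vdr and Atp2b1. The 250 bases before the start of Trpv6 lie on the minus strand at chr4:71489668-71489917, and the capitals mark a nuclear receptor half-site, AGGTCA, and an Hnf4-type motif, CAAAGTCCA.
Trpv6: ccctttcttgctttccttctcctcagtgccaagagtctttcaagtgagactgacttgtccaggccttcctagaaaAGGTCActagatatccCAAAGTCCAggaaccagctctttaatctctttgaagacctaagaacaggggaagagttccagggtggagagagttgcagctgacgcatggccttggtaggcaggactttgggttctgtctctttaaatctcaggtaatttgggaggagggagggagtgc
The half-site starts at position -175 and the Hnf4-type motif at position -159, and they do not overlap. Searched on both strands of 300-base windows (250 before and 50 after the start), AGGTCA was found in 16.2% and CAAAGTCCA in 0.391% of 33469 promoters. The second half-site, GGTTCA, was found once in the Vdr window and in 11.7% of all promoters. Direct repeats of these half-sites 3 bases apart, the arrangement known for Vdr binding, were in none of the 3 windows and the most frequent of them, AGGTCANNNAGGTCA, was in 0.0239% of all promoters. The Cdx-type motif TTTATG, in 12.7% of all promoters, was also in none of the 3 windows. A match describes letters only, and binding was not measured.

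S100g averaged 2368 ± 456 CPM in non-irradiated colon, 1849 ± 1145 CPM at day 4 and 22.5 ± 7.18 CPM at day 7 (SD, n = 6 each). The lowest, median and highest libraries had 1697, 2329 and 2894 CPM in non-irradiated rats, 257, 1913 and 3161 CPM at day 4, and 16.8, 20.9 and 36.4 CPM at day 7. The day 4 group reached from well under to above the non-irradiated range and split by library series. It had 2314 to 3161 CPM in series 1 and 257 to 1512 CPM in series 2. All series 2 libraries of day 4 lay under every non-irradiated one. The day 4 difference from non-irradiated colon ran from -1.49 to 1.06 over the processing alternatives. The day 7 libraries lay under every library of both other groups. The day 7 difference from non-irradiated colon was -6.81 ± 0.73 (log2, SE), or 112-fold lower, given without a test since the gene was picked over time. It ran from -7.17 to -2.58 over the processing alternatives, the smallest being that with the share of mitochondrial transcripts as a covariate.

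The difference between the days had the same sign in the treated arms. At day 7 against day 4, S100g differed in colon by -5.26 ± 0.69 under powder, -6.09 ± 0.71 under oral vehicle, -5.64 ± 1.19 under injection and -6.28 ± 0.71 without treatment (log2, SE), and by -2.62 ± 1.03 under injected vehicle. The Trpv6 differences were -3.84 ± 0.50, -5.22 ± 0.53, -5.34 ± 0.86, -5.13 ± 0.52 and -3.16 ± 0.77 in the same order. Day 7 and day 4 libraries did not overlap for either gene under powder, oral vehicle, injection and no treatment, where 49.3%, 27.4%, 40.8% and 36.5% of all genes were called. Calls and overlap are different measures, and the share of all genes without overlap was not computed for any comparison. The day 7 and day 4 libraries of both genes overlapped under injected vehicle, where 27.4% of all genes were called. There S100g had 2.35, 40.6 and 605 CPM in the lowest, median and highest day 7 libraries, against 34.4, 555 and 3500 CPM at day 4. In the order of the 11 colon group means, the ranges of mean ± SD of Trpv6 parted only between the lowest day 4 group, powder with 590 ± 220 CPM, and the highest day 7 group, injected vehicle with 70.3 ± 63.5 CPM. For S100g every neighbouring pair in that order overlapped. The order sets injected groups, all of series 3, beside groups of series 1 and series 2. In such pairs, as in powder at day 4 against injected vehicle at day 7, arm and series also differ and cannot be told apart from day.

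Vdr and Atp2b1 had smaller differences between the days, negative in all 5 arms in the fit reported and not under all processing alternatives. At day 7 against day 4 in colon, Vdr differed by -0.66 under powder, -1.47 under oral vehicle, -1.85 under injection, -0.96 under injected vehicle and -0.80 without treatment (log2). Atp2b1 differed by -0.12, -0.41, -1.18, -0.62 and -0.56 in the same order, and its day 7 and day 4 libraries parted under injection alone. Over the alternatives the Vdr difference ran from -1.80 to 0.18 under powder and from -0.97 to 0.0094 under injected vehicle, and that of Atp2b1 from -0.34 to 0.092 under powder. Cyp24a1 differed by -3.07 under oral vehicle, -4.95 under injection, -1.68 under injected vehicle and -4.48 without treatment, and by 4.57 under powder, where all 6 day 7 libraries were above the day 4 median. Single libraries carried much of these Cyp24a1 differences. That under powder was 2.55 without powder day 7 replicate 6 and 1.52 to 9.10 over the processing alternatives, that under oral vehicle was -1.64 without oral vehicle day 4 replicate 6, and that under injection was -1.39 without injection day 4 replicate 5.

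**Figure D1:**
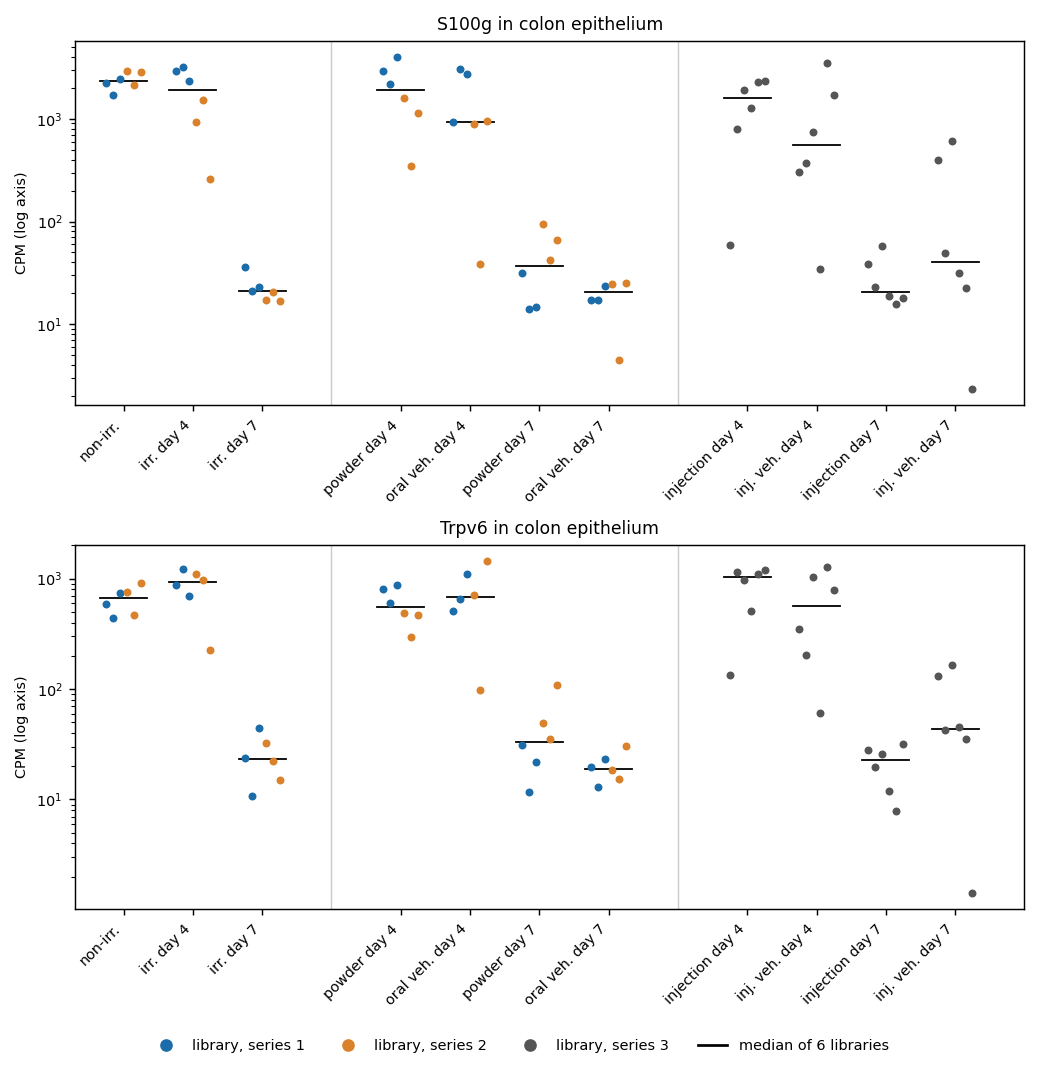
S100g (top) and Trpv6 (bottom) in the 66 colon libraries, as CPM on a log axis; points are libraries coloured by series and bars are medians of 6 libraries. The day 7 medians of S100g lie between 20.5 and 40.6 CPM and the day 4 medians between 555 and 1913 CPM, and single day 7 libraries of injected vehicle reach 605 CPM.

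Atp2b1 and Vdr stayed closer to their non-irradiated levels in colon. Atp2b1 averaged 372 ± 68.4 CPM in non-irradiated colon, 322 ± 81.8 CPM at day 4 and 222 ± 58.6 CPM at day 7 (SD, n = 6 each). Its libraries ran from 314 over a median of 346 to 493 CPM in non-irradiated rats, from 234 over 312 to 466 CPM at day 4, and from 185 over 198 to 339 CPM at day 7. The day 7 and non-irradiated ranges overlapped through a single day 7 library, replicate 3, at 339 CPM. Atp2b1 fell by 0.76 ± 0.21 (log2, SE) at day 7 (edgeR adjusted p = 0.0017), with -0.44 in series 1, where it was not called, and -1.03 in series 2, and its day 4 difference of -0.20 ± 0.20 was not called (edgeR adjusted p = 0.439).

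Vdr averaged 241 ± 37.8 CPM in non-irradiated colon, 214 ± 101 CPM at day 4 and 123 ± 58.7 CPM at day 7 (SD, n = 6 each). The lowest, median and highest libraries had 192, 255 and 282 CPM in non-irradiated rats, 41.2, 230 and 354 CPM at day 4, and 36.0, 128 and 198 CPM at day 7. The day 7 libraries were mostly under the non-irradiated ones, with an overlap between 192 and 198 CPM. The day 7 difference was -0.99 ± 0.44 (log2, SE) with an edgeR adjusted p of 0.05, just under the threshold, and the day 4 difference of -0.18 ± 0.44 was not called (edgeR adjusted p = 0.752). The day 7 call was lost in the fit without each of 9 single libraries: without untreated day 7 replicate 1, 2, 4 or 6 the difference was -0.88, -0.79, -1.02 or -0.99, and without non-irradiated replicate 1, 2, 4, 5 or 6 it was -0.99, -0.97, -0.94, -1.04 or -0.92. Over the other 11 processing alternatives the edgeR or DESeq2 adjusted p ran from 0.0115 to 0.949 and was under 0.05 in 3.

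**Figure D2:**
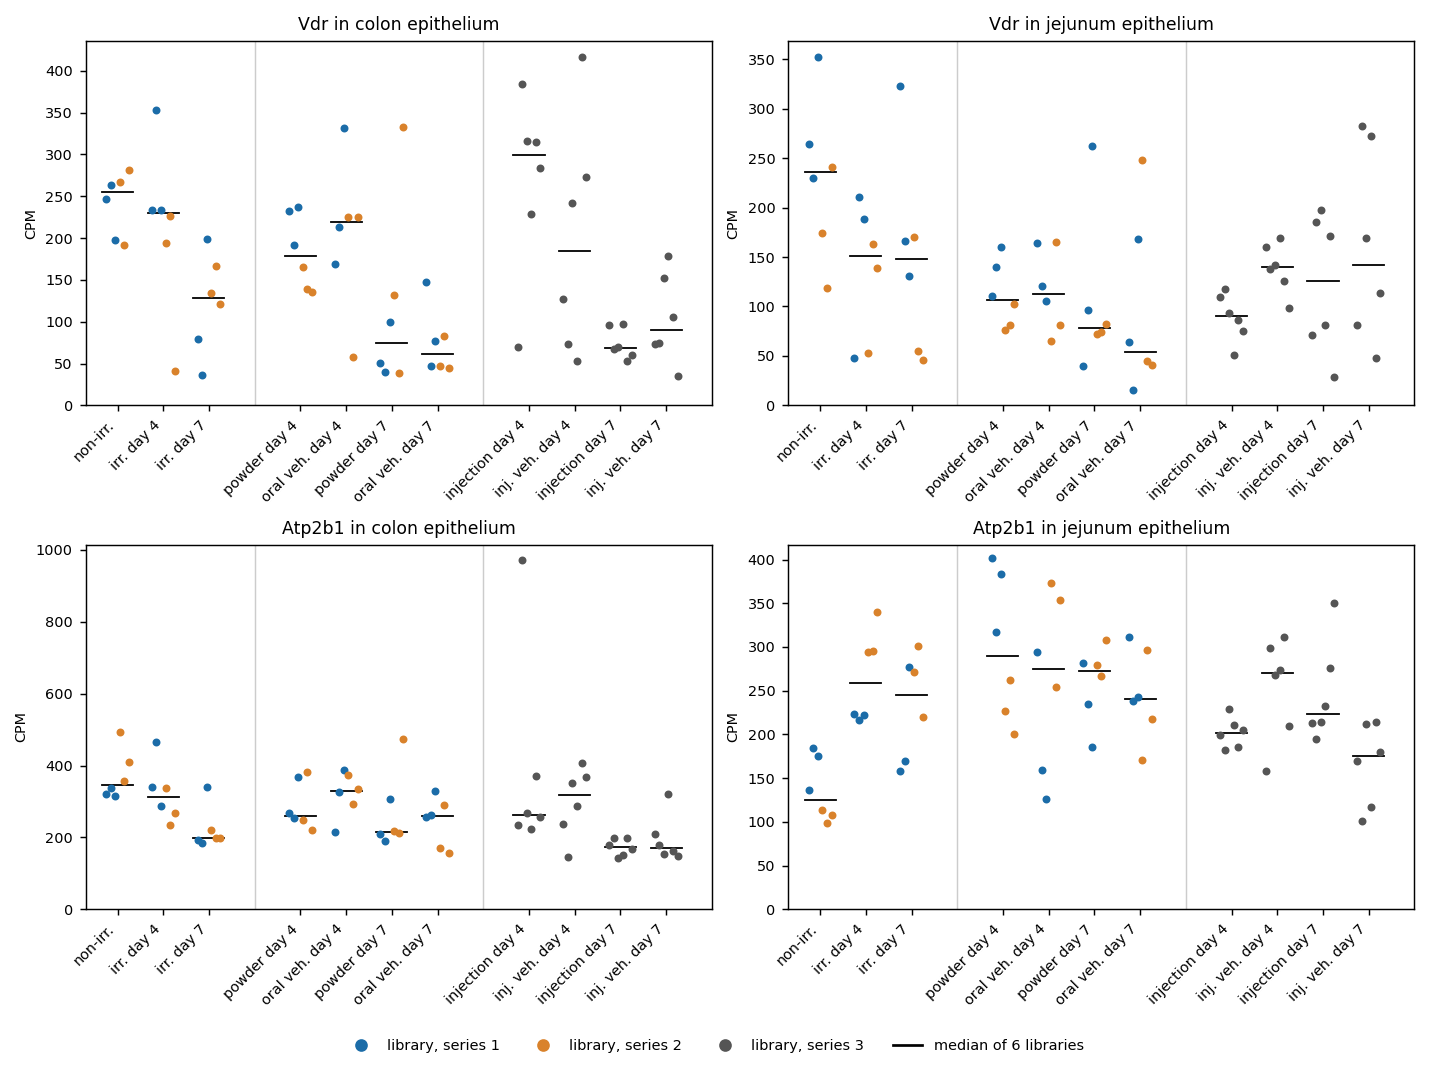
Vdr (top) and Atp2b1 (bottom) in colon (left) and jejunum (right), as CPM on a linear axis from 0; points are libraries coloured by series and bars are medians of 6 libraries. In colon the medians at day 7 without treatment, 128 CPM for Vdr and 198 CPM for Atp2b1, lie under the non-irradiated medians of 255 and 346 CPM, and in jejunum the non-irradiated median of Atp2b1, 125 CPM, is the lowest of its 11 groups.

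Cyp24a1 was close to 0 in non-irradiated colon and was high in single libraries at day 4. The 6 untreated libraries of day 4 had 0, 1.62, 6.60, 29.6, 34.4 and 241 CPM, against 0, 0.0487, 0.0517, 0.0956, 0.143 and 1.91 CPM in non-irradiated rats. At day 7 the lowest, median and highest untreated libraries had 0.165, 1.68 and 5.29 CPM. The day 4 mean of 52.2 ± 93.7 CPM (SD, n = 6) rested largely on replicate 4, and 5 of 6 day 4 libraries lay above the non-irradiated median while 1 had no count. At day 4 Cyp24a1 rose by 6.99 ± 1.76 (log2, SE), or 127-fold (edgeR adjusted p = 0.00156), with 8.02 in series 1 and 7.06 in series 2. The difference was 5.60 without untreated day 4 replicate 4 and 9.07 without non-irradiated replicate 6, and stayed called in all 12 fits that left out a single library. The day 7 difference of 2.52 ± 1.74 was not called (edgeR adjusted p = 0.207).

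Of the 4 genes tested in colon, 1 was called at day 4, Cyp24a1 as higher, where 46.9% of all genes were called and 24.6% were called higher. At day 7, 3 of the 4 were called, Trpv6, Atp2b1 and Vdr as lower, where 63.6% of all genes were called and 30.8% were called lower. Total counts without TMM factors move the median of all genes up by 0.22 at day 7, and with them Trpv6 at -4.53 and Atp2b1 at -0.55 stayed called while Vdr at -0.80 did not (edgeR adjusted p = 0.0719). The share of mitochondrial transcripts was 7.8 to 10.8% at day 4 and 3.24 to 4.82% at day 7, against 10.4 to 14.2% in non-irradiated colon. The day 7 and non-irradiated shares did not overlap, so a fit with that share as a covariate cannot tell it apart from irradiation. With that share as a covariate none of the 4 genes tested was called at either day, where 21.4% of all genes were called at day 4 and 2.04% at day 7: Cyp24a1 differed by 5.71 at day 4 (edgeR adjusted p = 0.0945, and 2.60e-06 to 0.0945 over all 11 alternatives) and Trpv6 by -2.47 at day 7 (edgeR adjusted p = 0.155, and 1.32e-25 to 0.155 over all 11). The same fit gave -0.67 for Atp2b1 (edgeR adjusted p = 0.482, and 0.000849 to 0.482 over all 11) and 0.19 for Vdr.

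Markers of the colonocyte, the absorptive cell, were lower at both days. The summed level of 8 measured colonocyte markers was 1348 to 13430 CPM at day 4 and 818 to 7491 CPM at day 7, against 21500 to 26300 CPM in non-irradiated colon. The sum of 7 general epithelial markers was 10790 to 16500 CPM at day 4 and 12520 to 17530 CPM at day 7, against 11430 to 14160 CPM. None of the measured colonocyte markers was at 0 in these groups. The colonocyte sum was already under every non-irradiated library at day 4. Trpv6 then overlapped with the non-irradiated libraries, and S100g did so in series 1 alone. Leukocyte markers summed to 18.2 to 84 CPM at day 4 and 11.6 to 58.9 CPM at day 7, against 12.5 to 116 CPM. The sum of 7 fibroblast and matrix markers, among them collagens, was low and moved the other way, with 25.7 to 86.8 CPM at day 4 and 11.3 to 216 CPM at day 7, against 4.55 to 12.1 CPM in non-irradiated colon, and at day 4 the groups did not overlap. The part of these markers in the results was not tested.

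The calcium genes had different levels along the intestine before irradiation. Trpv6 had 0.147, 0.285 and 0.799 CPM in the lowest, median and highest non-irradiated jejunum libraries, against 444, 664 and 920 CPM in colon. S100g had 105, 183 and 532 CPM in jejunum, against 1697, 2329 and 2894 CPM in colon. Atp2b1 had 98.5, 125 and 184 CPM in jejunum, against 314, 346 and 493 CPM in colon. The jejunum and colon libraries did not overlap for any of these 3 genes, and the share of all genes without overlap was not computed. Trpv6 was lower in jejunum by 11.00 on the log2 scale (SE 1.06, edgeR adjusted p = 1.14e-14), S100g differed by -3.53 ± 0.58 (edgeR adjusted p = 2.27e-07) and Atp2b1 by -1.57 ± 0.24 (edgeR adjusted p = 3.18e-08), while 70.5% of all genes were called and 41.1% were called lower. The median difference of all genes was -0.22, and -0.87 where total counts were used without TMM factors. The differences of these 3 genes were more negative than that median under both scalings, and the part of scaling in them was not tested.

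Vdr had 119, 236 and 352 CPM in jejunum against 192, 255 and 282 CPM in colon, with overlapping ranges. Its difference of 0.02 ± 0.49 was not called (edgeR adjusted p = 0.974). The sign changed under other processing, with -0.63 for total counts without TMM factors. Cyp24a1 had 0 counts in 6 of 6 non-irradiated jejunum libraries, which allows up to 0.0261 CPM over the group at 3 counts, against 44 counts over the 6 colon libraries. Across all 11 jejunum groups its highest mean was 0.593 ± 0.823 CPM, under powder at day 4 (SD, n = 6), and the tissue difference was not called by edgeR (adjusted p = 0.172) and was called by DESeq2 (adjusted p = 0.0266, and 0.00952 to 0.594 over 10 alternatives).

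**Figure D3:**
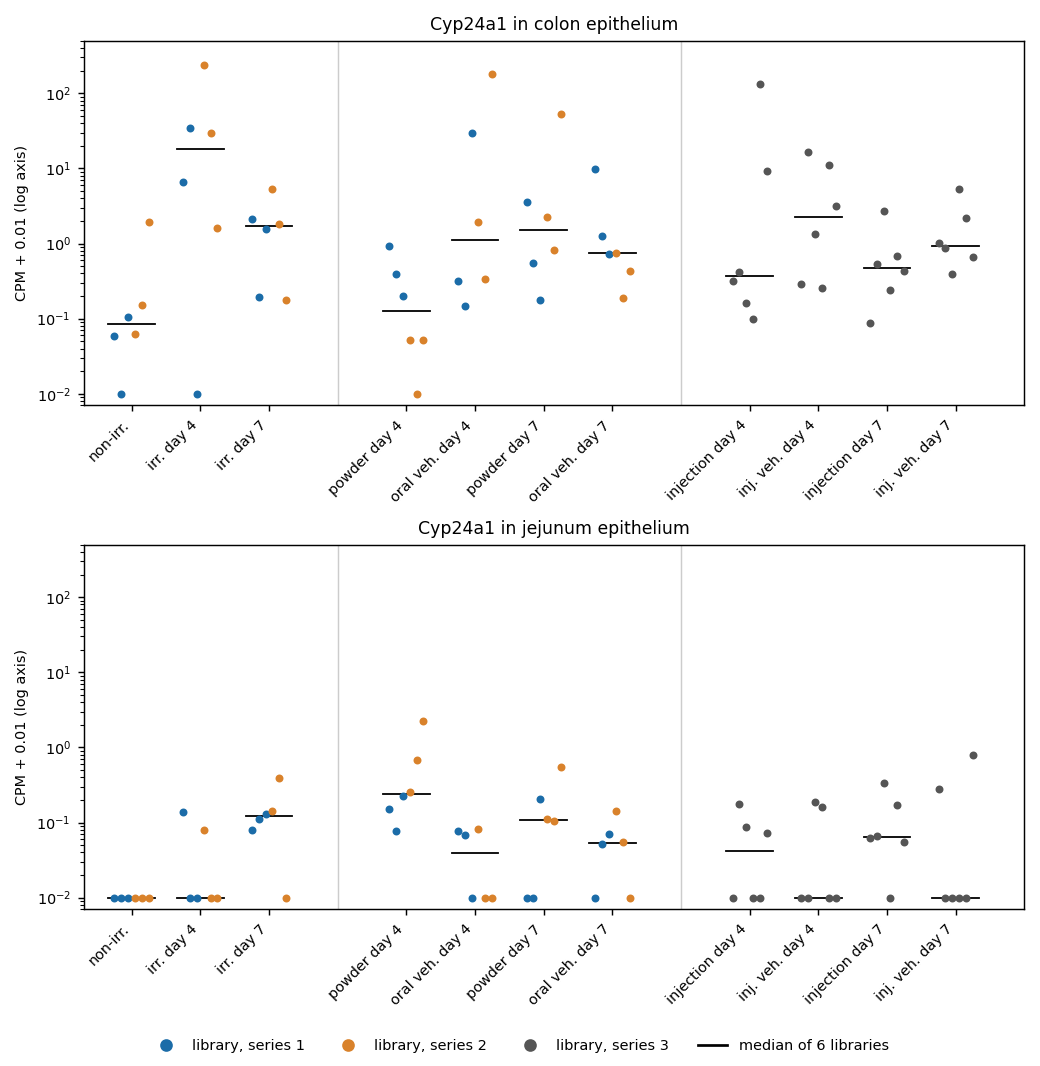
Cyp24a1 in colon (top) and jejunum (bottom), as CPM + 0.01 on a log axis; points are libraries coloured by series, bars are medians of 6 libraries, and libraries with no count sit at 0.01. In colon single libraries reach 241 CPM without treatment, 179 CPM under oral vehicle and 131.8 CPM under injection at day 4, the day 4 powder libraries stay under 1 CPM, and in jejunum the highest library has 2.22 CPM.

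In jejunum the irradiated rats had more Atp2b1. Its lowest, median and highest libraries had 98.5, 125 and 184 CPM in non-irradiated rats, 217, 259 and 340 CPM at day 4, and 158, 246 and 301 CPM at day 7. The day 4 libraries all lay above the non-irradiated ones and the day 7 ranges overlapped. Atp2b1 rose by 0.96 ± 0.23 at day 4 (log2, SE, edgeR adjusted p = 0.00105) and by 0.76 ± 0.23 at day 7 (edgeR adjusted p = 0.00465). By library series the difference was 0.41 in series 1 and 1.55 in series 2 at day 4, and 0.28 and 1.30 at day 7, and the series 1 values were not called (edgeR adjusted p = 0.321 and 0.456, with 2.38e-05 to 0.321 at day 4 and 4.63e-05 to 0.456 at day 7 over all 11 alternatives).

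Jejunal Trpv6 was near the limit of what these counts resolve. Its libraries ran from 0.147 over a median of 0.285 to 0.799 CPM in non-irradiated rats, from 0.535 over 1.05 to 7.44 CPM at day 4, and from 0.103 over 0.591 to 2.41 CPM at day 7. All 6 day 4 libraries were above the non-irradiated median, and the ranges overlapped. The day 4 difference of 2.73 ± 1.10 was called (edgeR adjusted p = 0.042), and the day 7 difference of 1.12 ± 1.13 was not (edgeR adjusted p = 0.394). In series 1 and series 2 alone the day 4 difference was 2.40 and 2.83 and was not called (edgeR adjusted p = 0.278 and 0.057, and 0.0118 to 0.278 over 10 alternatives). The day 4 call was lost in 7 of 12 fits without a single library: the difference was 1.95 without untreated replicate 4, 2.63 without untreated replicate 6, and 2.58 to 2.76 without non-irradiated replicate 1, 2, 3, 5 or 6.

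S100g in jejunum had 105, 183 and 532 CPM in the lowest, median and highest non-irradiated libraries, 24.8, 64.8 and 108 CPM at day 4, and 13.6, 25.4 and 37.3 CPM at day 7. The level was lower at day 4 and lower again at day 7, with every day 7 library under every non-irradiated one, and the differences from non-irradiated jejunum were -1.94 ± 0.38 at day 4 and -3.39 ± 0.40 at day 7 (log2, SE), again without a test. Over the processing alternatives they ran from -2.64 to -0.74 at day 4 and from -3.89 to -2.39 at day 7. The non-irradiated libraries split by series, with 105 to 152 CPM in series 1 and 214 to 532 CPM in series 2. At day 7 against day 4 S100g differed by -1.69 under powder, -1.59 under oral vehicle, -1.45 under injection, -1.91 under injected vehicle and -1.44 without treatment, where 36.9%, 25.7%, 41%, 50.6% and 41% of all genes were called. The 2 days did not overlap under powder and overlapped in the other arms. Vdr averaged 134 ± 68.9 CPM at day 4 and 149 ± 101 CPM at day 7, against 230 ± 79.5 CPM in non-irradiated jejunum (SD, n = 6 each). Its differences of -0.75 ± 0.46 and -0.69 ± 0.46 were not called (edgeR adjusted p = 0.188 and 0.199). Of the 3 genes tested in jejunum, 2 were called at day 4, both higher, where 44% of all genes were called and 25% were called higher. At day 7 it was 1, Atp2b1 as higher, where 58.8% were called and 31.4% were called higher. Total counts without TMM factors raise the median of all genes in jejunum by 0.11 at day 4 and 0.51 at day 7. With them Atp2b1 was at 1.06 and 1.27 and stayed called, and the part of scaling in its differences was not tested. Jejunal enterocyte markers summed to 52200 to 199300 CPM at day 4 and 16680 to 83920 CPM at day 7, against 99970 to 119800 CPM in non-irradiated jejunum, and their part in these results was not tested.

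**Figure D4:**
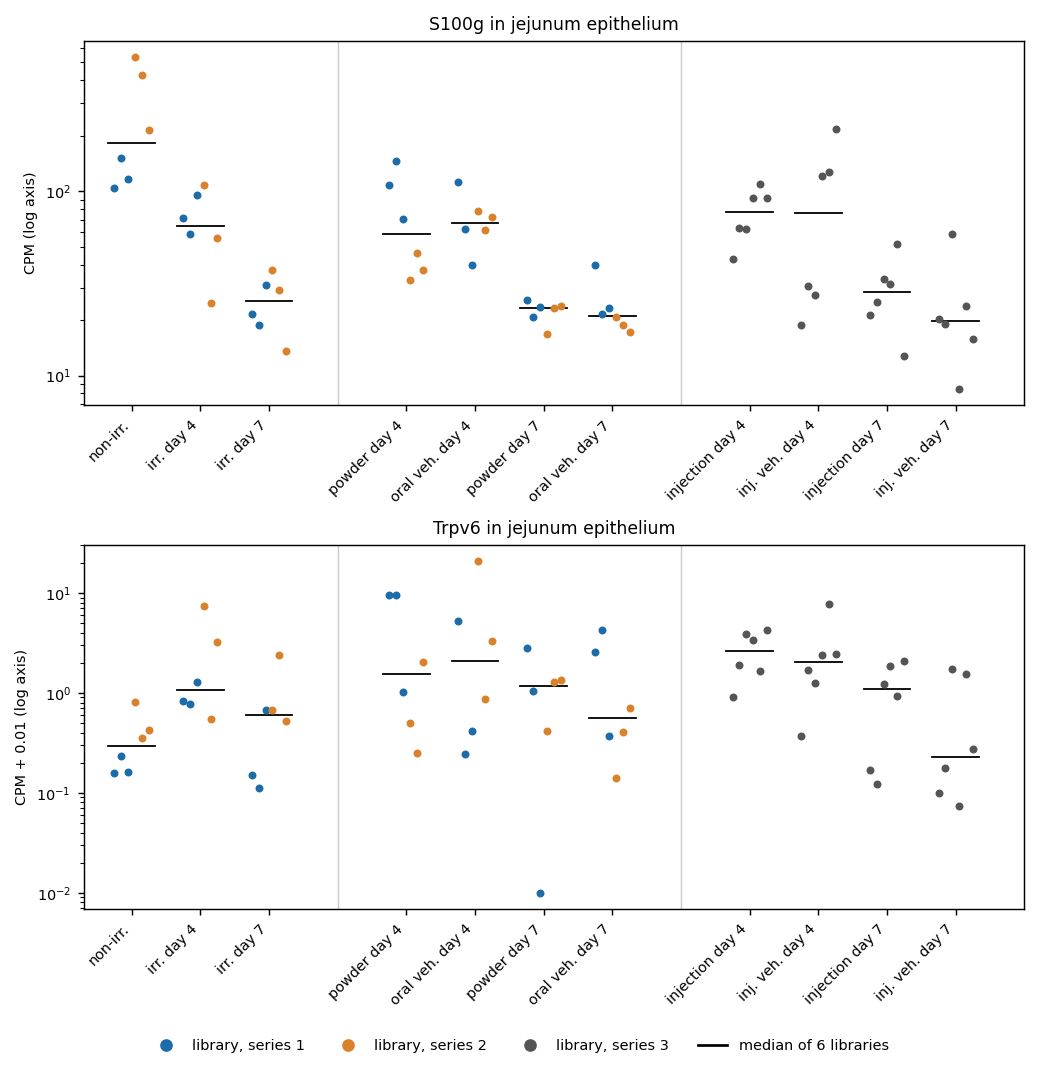
S100g (top, CPM) and Trpv6 (bottom, CPM + 0.01) in the 66 jejunum libraries on log axes; points are libraries coloured by series and bars are medians of 6 libraries. S100g medians step down from 183 CPM in non-irradiated rats to 64.8 CPM at day 4 and 25.4 CPM at day 7, and the highest Trpv6 library has 20.8 CPM.

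The effect of irradiation differed between the tissues for 2 genes. The irradiation effect on Atp2b1 in jejunum minus that in colon was 1.20 ± 0.32 at day 4 (log2, SE, edgeR adjusted p = 0.00385) and 1.61 ± 0.32 at day 7 (edgeR adjusted p = 4.47e-05), and within the tissues the pump was called higher in jejunum at both days and lower in colon at day 7. For Trpv6 this difference was 5.98 ± 1.23 at day 7 (edgeR adjusted p = 9.13e-05) and 5.11 without untreated jejunum day 7 replicate 5. At day 4 its 2.41 ± 1.18 was not called (edgeR adjusted p = 0.134). Of 4 genes tested, 1 was called at day 4, where 21.8% of all genes were and 13.6% were in the positive direction, and 2 at day 7, where 39.6% were and 25.4% were in the positive direction. In series 1 alone the Atp2b1 difference was 0.28 at day 4 and 0.81 at day 7 and was not called, and in series 2 alone it was 2.09 and 2.29 and was called (edgeR adjusted p from 0.000175 to 0.673 at day 4 and from 1.68e-06 to 0.118 at day 7 over all 11 alternatives). The labels do not say whether a colon and a jejunum library came from 1 rat.

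Under powder, Cyp24a1 stayed low in colon at day 4. The 6 powder libraries had 0, 0.0418, 0.0420, 0.189, 0.381 and 0.903 CPM, against 0.136, 0.304, 0.326, 1.90, 29.8 and 179 CPM under oral vehicle. All 6 powder libraries were under the vehicle median of 1.11 CPM, and the ranges overlapped. The difference was -6.55 ± 1.80 (log2, SE), or 93.7-fold lower, and is the contrast for which the gene was picked, so it has no test. It was -4.34 in series 1 and -10.83 in series 2, -4.81 without oral vehicle replicate 6, and -7.77 without powder replicate 1. The share of all genes called in this contrast was 11.8%. Colonocyte markers summed to 6549 to 16390 CPM under powder, against 1327 to 12530 CPM under oral vehicle, and their part in the difference was not tested. The other 4 genes differed by -0.31 to 0.55, each by less than 1 SE.

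At day 7 the powder libraries of Cyp24a1 in colon had a lowest, median and highest level of 0.165, 1.51 and 52.2 CPM, against 0.176, 0.727 and 9.79 CPM under oral vehicle. The difference was 1.10 ± 1.46 (log2, SE) and -0.71 without powder replicate 6, so its direction rested on that library. S100g had 14.0, 36.9 and 95.2 CPM under powder, against 4.48, 20.5 and 25.3 CPM under oral vehicle, a difference of 1.38 ± 0.58 that was 0.07 in series 1 and 1.91 in series 2. Trpv6 had 11.6, 33.2 and 108 CPM under powder, against 12.9, 19.1 and 30.6 CPM under oral vehicle, a difference of 1.08 ± 0.45 that was 0.21 in series 1 and 1.59 in series 2. Both genes were thus higher under powder mainly in series 2, at a level far under that of day 4. Colonocyte markers summed to 466 to 11820 CPM under powder at day 7, against 816 to 4288 CPM under oral vehicle. The Vdr difference of 0.68 ± 0.45 was -0.01 without powder replicate 6, and that of Atp2b1, 0.15 ± 0.20, was -0.09. No gene of the whole table was called in this contrast (0%), by edgeR, and 2 were called by DESeq2. In jejunum the powder differences of the 4 genes in the fit lay between -0.36 and 0.22 at both days, where 0.008% of all genes were called. These small values were not stable: the day 4 difference of Trpv6 ran from -0.79 to 0.91 with 1 library left out and from -3.17 to 1.80 over the processing alternatives, and that of Atp2b1 from -0.50 to 0.94 over the alternatives.

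Injection was compared with its own vehicle. In colon at day 7, S100g had 15.7, 20.8 and 58.4 CPM in the lowest, median and highest injection libraries, against 2.35, 40.6 and 605 CPM under injected vehicle. Trpv6 had 7.85, 22.8 and 31.5 CPM under injection, against 1.43, 43.9 and 166 CPM under injected vehicle. The injection libraries of both genes lay inside the range of the vehicle libraries, which was wide in both directions. Colonocyte markers summed to 1035 to 5217 CPM under injection, against 609 to 10750 CPM under injected vehicle, and their part in the result was not tested. The differences of -2.66 ± 1.04 for S100g and -1.74 ± 0.74 for Trpv6 (log2, SE) had unadjusted p of 0.0175 and 0.0274 in edgeR and an adjusted p of 1. Without injected vehicle replicate 3 the S100g difference was -1.82, and leaving out any 1 library kept both differences negative. S100g was picked over time and these libraries also stand in its time contrasts, so its p is not independent of that choice. At day 4 Cyp24a1 had 0.0878, 0.361 and 131.8 CPM under injection, against 0.244, 2.25 and 16.5 CPM under injected vehicle. Its difference of 2.13 ± 1.31 was not called (edgeR adjusted p = 0.871) and was -1.44 without injection replicate 5, the library at 131.8 CPM.

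No gene of the 5 in colon or the 4 in jejunum was called for injection at either day, by edgeR or DESeq2. At an unadjusted edgeR p under 0.05 there were 2 in colon at day 7, S100g and Trpv6. There was 1 in jejunum at day 7, Atp2b1 with 0.58 ± 0.19, and 0 at day 4 in either tissue. The p of S100g, here and under oral vehicle, is not independent of its choice over time, since the libraries are shared. Of all genes, 1.73% in colon and 2.81% in jejunum at day 7, and 3.61% and 8.31% at day 4, had an unadjusted edgeR p under 0.05, and 0% were called by edgeR in all of these contrasts. The injection effect at day 7 minus that at day 4 was tested for the genes other than S100g, which was picked over time, and 0 of 4 in colon and 0 of 3 in jejunum were called by either tool. At an unadjusted edgeR p under 0.05 there was 1 in each tissue, Trpv6 in colon with -2.18 ± 1.02 and Atp2b1 in jejunum with 0.87 ± 0.27 (log2, SE), as for 3.18% and 4.2% of all genes. S100g differed there by -3.02 ± 1.41 in colon and 0.46 ± 0.71 in jejunum, without a test. Oral vehicle against no treatment likewise gave 0 calls in the 4 genes tested per tissue and day by both tools and 0 at an unadjusted edgeR p under 0.05, which 2.81% to 9.2% of all genes had, where 0% (day 4, both tissues), 0.00752% (day 7, colon) and 0.008% (day 7, jejunum) of all genes were called. A p above the threshold does not show that these levels were alike: the SE of S100g in the colon contrasts was 0.97 and 1.04 for injection and 0.56 and 0.57 for oral vehicle.

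**Figure D5:**
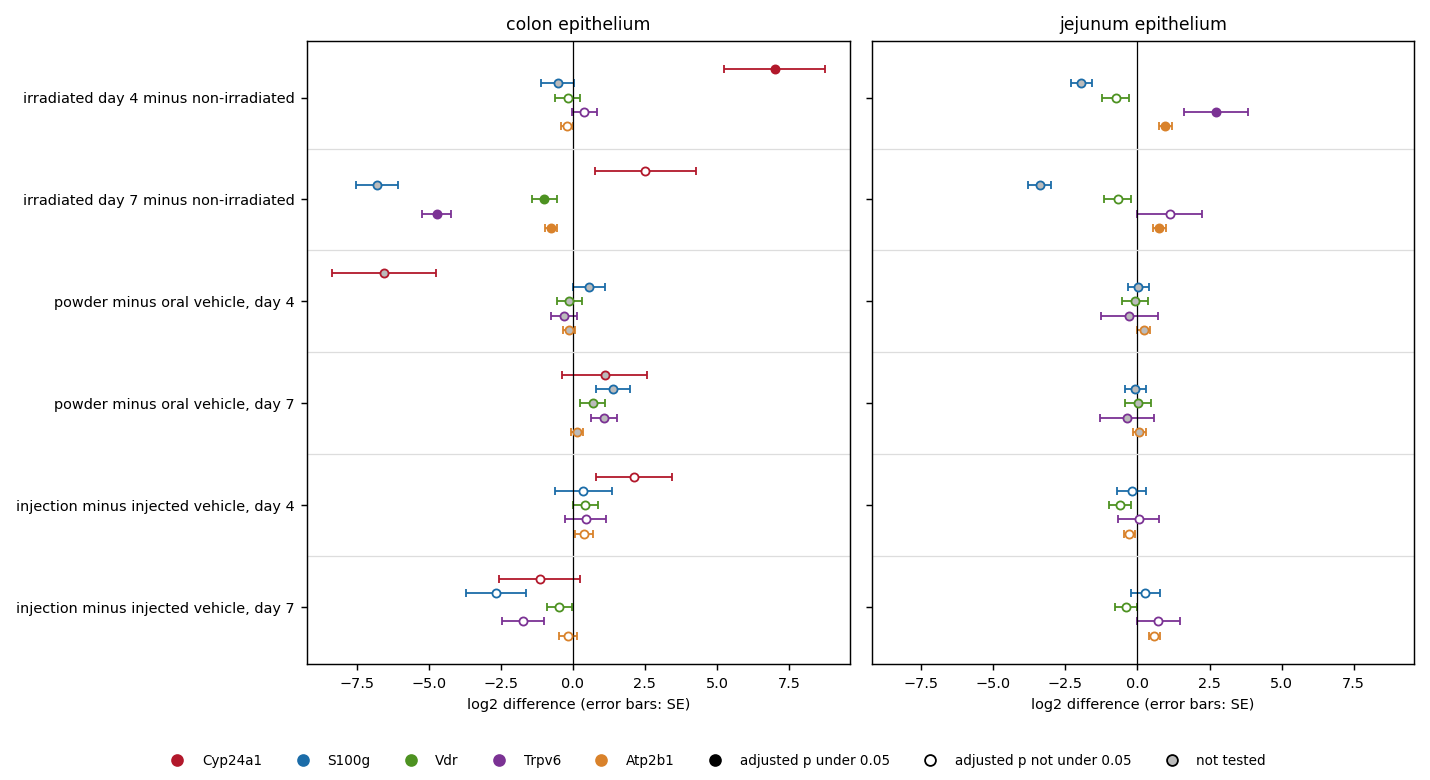
Log2 differences of the 5 genes with their SE in 6 comparisons in colon (left) and jejunum (right), the first-named group minus the second; filled points have an adjusted p under 0.05, open points do not, and grey points were not tested. Among the points far from 0 are those of S100g and Trpv6 at day 7 and Cyp24a1 at day 4 (6.99) and day 7 (2.52) after irradiation in colon, S100g in both irradiation rows of jejunum, Trpv6 at 2.73 in jejunum at day 4, and Cyp24a1 at -6.55 under powder.

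Across the 66 colon libraries, which span all groups, the log2 CPM of S100g and Trpv6 had a Pearson correlation of 0.958, and each was the gene most like the other among 9560 genes with a mean of at least 5 CPM. Next for S100g came Slc30a10, a manganese exporter, with 0.952, and Actn2 with 0.945. Vdr was most like Ifngr2, an interferon gamma receptor chain, with 0.962, and Trpm6, a magnesium channel, with 0.951. Atp2b1 was most like Spint1, a protease inhibitor, with 0.918. Cyp24a1 had no close companion, with 0.602 for Vldlr as the highest value, and its own correlation with Vdr was 0.204. In the 66 jejunum libraries S100g and Trpv6 correlated at 0.364 and S100g and Vdr at 0.218, against 0.768 for S100g and Vdr in colon. Jejunal Trpv6 was near the limit of what these counts resolve. Vdr correlated in jejunum at -0.404 with Atp2b1 and -0.455 with Trpv6, against 0.683 and 0.798 in colon. Trpv6 and Atp2b1 correlated at 0.619 in jejunum and 0.624 in colon. These values share group structure, library series and depth and are descriptions only.

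Other genes of vitamin D and calcium biology were counted from a list of 53 symbols, of which 52 have an entry. In colon at day 4, 38 passed the filter, 12 were called higher and 9 lower, and at day 7 it was 11 in each direction, where 46.9% and 63.6% of all genes were called, with medians of 0.04 and -0.08 (log2) against 0.02 for all genes at both days. In jejunum 35 passed, 7 were called higher and 10 lower at day 4, and 8 and 14 at day 7, where 44% and 58.8% of all genes were called, with medians of -0.04 and -0.43 against 0.05 and 0.02 for all genes. The list had members called in both directions, and none was called for injection or oral vehicle in either tissue.

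Among 8 other calcium channels, buffers and exporters tested in colon at day 7, 4 were called lower and 2 higher, where 63.6% of all genes were called. Slc8a1, a sodium-calcium exchanger, was called lower, with 11.1 CPM at day 7 against 153 CPM in non-irradiated rats (log2 -3.88 ± 0.48, edgeR adjusted p = 2.20e-08). Trpv5, the channel closest to Trpv6, was also called lower and had 0.397 CPM against 2.63 CPM (-2.72 ± 0.42, edgeR adjusted p = 9.58e-07). The calcium-sensing receptor Casr, counted in another group of the list, was called lower at both days, with -3.81 ± 0.83 at day 4 and -6.24 ± 0.97 at day 7 (edgeR adjusted p = 0.000369 and 1.21e-06). The endoplasmic reticulum calcium pump Atp2a2 was called higher, with 636 CPM at day 7 against 348 CPM in non-irradiated colon (0.85 ± 0.11, edgeR adjusted p = 4.10e-08).

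Cldn2, a claudin that forms paracellular cation pores, rose in both tissues. In jejunum it averaged 343 CPM at day 4 and 323 CPM at day 7, against 21.1 CPM in non-irradiated rats (log2 3.97 ± 0.41 and 3.88 ± 0.41, edgeR adjusted p = 4.98e-09 and 3.89e-09). In colon it averaged 244 CPM at day 4 and 170 CPM at day 7, against 74.2 CPM (1.78 ± 0.45 and 1.15 ± 0.44, edgeR adjusted p = 0.00156 and 0.0217). Tgm2, a transglutaminase, rose in colon to 59.6 CPM at day 4 and 143 CPM at day 7, against 1.88 CPM in non-irradiated rats, and fell in jejunum to 74.3 and 72.3 CPM, against 179 CPM. Its difference between the tissues was -6.07 ± 0.81 at day 4 and -7.62 ± 0.83 at day 7 (edgeR adjusted p = 5.04e-08 and 4.40e-11).

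Of the hormone's own enzymes, Cyp27a1, a vitamin D 25-hydroxylase, fell in colon with -1.09 ± 0.40 at day 4 and -1.93 ± 0.40 at day 7 and in jejunum with -1.68 ± 0.61 and -1.54 ± 0.61 (log2, SE, edgeR adjusted p from 9.58e-05 to 0.0286). The receptor partner Rxrb fell in colon with -0.93 ± 0.11 and -0.89 ± 0.11 at the same days (edgeR adjusted p = 7.92e-08 and 3.92e-08). Cdx2 and Hnf4a, intestinal transcription factors, were both called lower in colon at day 4, with -0.90 ± 0.13 and -0.63 ± 0.16 (edgeR adjusted p = 2.07e-06 and 0.00219). At day 7 Cdx2 remained lower with -0.71 ± 0.13 (edgeR adjusted p = 1.97e-05) and Hnf4a was not called.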

How the data were processed

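Libraries were made from total RNA of colon and jejunum epithelium and sequenced as paired-end reads on a DNBSEQ-G400, per the labels' protocols. Reads were aligned with STAR 2.7.10a to mRatBN7.2, per the submitters' processing notes. Which counter, annotation release and strand setting were used is not given in the sources used here, so overlapping and antisense genes cannot be told apart. The deposited values are raw counts per gene symbol without normalization, in 2 tables with 168 library columns. The 36 libraries that stand in both, with 0 differing values, were used once. Groups come from the titles and library series from the library names.

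Counts were tested with edgeR 4.0.16 (R 4.3.3): quasi-likelihood F test, TMM factors, filterByExpr by group and Benjamini-Hochberg adjustment over all genes tested, at 0.05. The fits held 42 libraries per tissue (non-irradiated, untreated and oral groups, with library series as a term), 24 injected libraries per tissue, or 84 libraries of both tissues with series within tissue. SE is the absolute log2 difference divided by the square root of F. Powder and time contrasts, Cyp24a1 under oral vehicle, S100g after irradiation, and S100g in the injection effect between days share libraries with the choice of the genes and have no test. S100g under injection and under oral vehicle shares libraries with its time contrasts as well but was tested. The 5 genes, the gene lists and the markers were chosen with earlier results of these data known, and list genes are named where called. Genes most like each of the 5 were the 3 with the highest Pearson correlation of log2 CPM (prior count 0.5) per tissue. Alternatives were DESeq2 1.42.0, RLE factors, no filter, a replicate block, each series alone, no series term, a mitochondrial covariate, mitochondrial genes left out, the compared groups alone, each library left out, and, added after seeing the data, total counts without TMM factors. The replicate block was the replicate number in the fits of 1 tissue. In the fit of both tissues it was the library number within its series, shared by a jejunum and a colon library. The edgeR code was tested on simulated counts. Depth was 17.2 to 19.8 M counts, and floors of 3 counts cover counting error only.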

Additional observations from a re-analysis of the deposited data

Results flagged for a closer look

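The effect of irradiation differed between jejunum and colon, by a test of the difference itself, for Atp2b1 with 1.20 at day 4 and 1.61 at day 7 and for Trpv6 with 5.98 at day 7 (log2). In series 1 alone the Atp2b1 difference, 0.28 and 0.81, was not called. Trpv6 in jejunum had 25 counts over the non-irradiated group and 87 at day 7 without treatment, and was not called there at day 7.

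In 24 of 110 sets of 6 libraries (5 genes in 22 groups) the highest library stood apart from the other 5 by Dixon's criterion, and in none did the lowest. Chance flags about 1 in 20 sets of normally distributed values. CPM values were not transformed and many sets of Cyp24a1 hold few counts, so that rate is no yardstick here. Of the 24 sets flagged, 13 were of Cyp24a1. In colon its highest libraries had 241 CPM without treatment at day 4 (replicate 4, the next at 34.4), 178.8 CPM under oral vehicle at day 4 (replicate 6, the next at 29.8), 131.8 CPM under injection at day 4 (replicate 5, the next at 9.13) and 52.2 CPM under powder at day 7 (replicate 6, the next at 3.53). Lower down in colon they had 9.79 CPM under oral vehicle (replicate 1), 5.34 CPM under injected vehicle (replicate 4), 5.29 CPM without treatment (replicate 4) and 2.66 CPM under injection (replicate 3), all at day 7, and 1.91 CPM in non-irradiated rats (replicate 6). In jejunum they had 2.22 CPM under powder at day 4 and 0.534 CPM under powder at day 7 (both replicate 6), 0.789 CPM under injected vehicle at day 7 (replicate 6) and 0.386 CPM without treatment at day 7 (replicate 5).

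Atp2b1 in colon had 973.4 CPM under injection at day 4 in replicate 2, with the next library at 371.4 CPM. At day 7 it had 321.5 CPM under injected vehicle in replicate 4 and 339 CPM without treatment in replicate 3. Vdr had 332.1 CPM in colon under powder at day 7 in replicate 6, the library with 52.2 CPM of Cyp24a1, and 262.6 CPM in jejunum under powder at day 7 in replicate 3. S100g had 36.4 CPM in colon without treatment at day 7 (replicate 1), and in jejunum 58.6 CPM under injected vehicle (replicate 3) and 39.9 CPM under oral vehicle (replicate 1) at day 7. Trpv6 in jejunum had 20.8 CPM under oral vehicle at day 4 (replicate 4), 7.72 CPM under injected vehicle at day 4 (replicate 5) and 2.41 CPM without treatment at day 7 (replicate 5).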

How the results depend on the processing

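With a single library left out, 49 of 68 tested results kept their sign and their side of the threshold in all such fits, 17 turned their sign in at least 1 fit and 2 changed their call, and of 73 values given without a test 54 kept their sign and 19 turned it. The number of the genes called changed as follows. With the mitochondrial share as a covariate it was 0 in colon at both days. In series 1 alone it was 1 in colon at day 7, 0 in jejunum at day 4 and day 7, and 0 and 1 for the tissue difference of irradiation at day 4 and day 7. It was 1 in jejunum at day 4 in series 2 alone, without a filter and with only the groups compared, and 2 at day 7 without a filter. For the tissue difference at day 4 it was 2 with DESeq2 and 2 with only the groups compared. In colon at day 7 it was 2 in series 2 alone, with total counts, RLE factors, the replicate block, mitochondrial genes left out and no filter, against 3. For non-irradiated jejunum against colon it was 4 with DESeq2 and with the replicate block, against 3. With 1 library left out, jejunum at day 4 had 1 to 2 genes called and colon at day 7 had 2 to 3. Over all genes, the called number in colon was 272 at day 7 and 2847 at day 4 with the mitochondrial covariate, against 8469 and 6242, and 2115 at day 4 in series 1 alone. Powder in colon at day 4 had 1568 genes called, and 3 in series 1, 25 in series 2, 651 with the covariate and 958 with only the groups compared. Jejunum had 1880 and 3303 at days 4 and 7 in series 1 alone, against 5495 and 7352, and 3496 at day 4 with only the groups compared. The tissue difference had 1605, 1990 and 1978 at day 4 in series 1, in series 2 and with only the groups compared, against 2994, and 3412 at day 7 in series 2, against 5437. The cause of these changes was not tested. The single-series fits also held fewer libraries, so library number and series cannot be told apart there.

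Values below that changed sign were all uncalled in the fit reported, except Vdr in colon at day 7, which was 0.19 with the mitochondrial covariate. That covariate also gave 0.27 for Vdr in colon at day 4, -0.25 for Cyp24a1 in colon at day 7, -0.021 for Trpv6 under injection in jejunum at day 4 and 0.00077 for Atp2b1 under oral vehicle in colon at day 4. Series 1 alone gave 0.19 for Atp2b1 and 0.23 for Vdr in colon at day 4, -0.47 for Cyp24a1 in the day 7 tissue difference, and -0.060 and 0.27 for S100g under oral vehicle in jejunum at days 4 and 7. Series 2 alone gave, under oral vehicle, 0.25 for Atp2b1 and 0.13 for Vdr in colon at day 4, 0.010 for S100g in colon at day 7, 0.056 for Atp2b1 in jejunum at day 4, and -0.20 for Atp2b1, -1.47 for Trpv6 and 0.28 for Vdr in jejunum at day 7. It gave 0.064 and -0.22 for Vdr in the tissue difference of irradiation at day 4 and day 7. Total counts gave, under oral vehicle, 0.0050 for Atp2b1 in colon at day 4, 0.13 for Atp2b1 and 0.052 for Vdr in jejunum at day 4, and 0.10 for S100g in jejunum at day 7. Vdr in non-irradiated jejunum against colon was -0.44 in series 2, -0.14 without a series term and -0.63 with total counts.

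With single libraries left out, values ran as follows. Vdr ran from -1.17 to -0.79 in colon at day 7, from -0.37 to 0.042 at day 4, from -0.29 to 0.11 under oral vehicle at day 4, and from -0.090 to 0.11 for jejunum against colon. Atp2b1 in colon ran from -0.14 to 0.49 and from -0.25 to 0.023 under injection at days 4 and 7, and under oral vehicle at day 4 from -0.087 to 0.12 in colon and -0.17 to 0.10 in jejunum. Cyp24a1 in colon ran from -5.95 to -1.39 between the days under injection, from -4.25 to 0.28 for the injection effect at day 7 minus day 4, from -1.44 to 2.91 under injection at day 4, from -1.32 to 1.23 under oral vehicle at day 7, and from -0.062 to 2.35 in the day 7 tissue difference. S100g in jejunum ran from -0.0051 to 0.92 for the injection effect between the days, from -0.41 to 0.28 under injection at day 4, and from -0.12 to 0.25 and -0.30 to 0.056 under oral vehicle at days 4 and 7. Trpv6 in jejunum ran from 1.95 to 3.13 after irradiation at day 4, from -0.0091 to 1.21 for the injection effect between the days, from -0.18 to 0.74 under injection and -0.30 to 1.92 under oral vehicle at day 4, and in colon from -0.49 to 0.031 under oral vehicle at day 4.

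Replicate numbers recur in every group, but not every pair of the same number deviated together: of 66 jejunum and colon pairs, 33 correlated above 0.1, with a median of 0.0933 and a range from -0.363 to 0.477. With the block of library numbers in the fit of both tissues, Vdr was -0.035 in non-irradiated jejunum against colon. Cyp24a1 was called as lower in jejunum there (edgeR adjusted p = 0.00952, and 0.00952 to 0.594 over all alternatives). With the block of replicate numbers, Vdr was -1.01 in colon at day 7 (edgeR adjusted p = 0.0531, and 0.0115 to 0.949 over all alternatives). These blocks changed no other call among the 5 genes. Libraries of 17.2 to 19.8 M counts left Cyp24a1 in jejunum with too few counts to enter the fit.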
